A study of Ovis aries with 6 samples.

Results

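The 6 nuclear receptor genes ESR1, ESR2, PGR, NR3C1, NR5A1 and NR5A2 were followed through the somatic cells of the Hu sheep ovary. They were taken by name from the 30574 genes listed, with no threshold on a measured value, and all 6 were found under these symbols. ESR1 and ESR2 encode the alpha and beta estrogen receptors, PGR the progesterone receptor and NR3C1 the glucocorticoid receptor. NR5A1 and NR5A2 encode steroidogenic factor 1 and liver receptor homolog 1, a pair of related orphan receptors.

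Nuclear receptors are transcription factors that bind DNA directly, and the steroid receptors among them do so after a steroid hormone has entered the cell and bound them. In the follicle, granulosa cells make estradiol from androgens supplied by theca cells, and estrogen and progesterone receptors relay these hormones back to follicle, stroma and vessel. NR5A1 and NR5A2 recognise closely similar DNA sites and are known to act on genes of cholesterol side-chain cleavage, aromatisation and inhibin, while NR3C1 is known for a broad presence across cell types.

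Ovaries of 6 Hu ewes in estrus were each sequenced as 1 single-cell library with the 10× Genomics 3′ chemistry. The high-reproduction group (HLS, n = 3) held ewes with a litter size of at least 3, and the low-reproduction group (LLS, n = 3) held ewes with a litter size below 2. One side's ovary was taken from each ewe within a short window after estrus was detected, so that a difference between ewes in cycle stage or in the follicles present cannot be told apart from a difference between groups with 3 ewes each. The groups were formed by litter size record, with no treatment, no allele named in the labels and the same breed in both.

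The deposited matrices held 52290 barcodes with a total of 43329214 to 75549906 unique molecular identifiers (UMI, each standing for a captured RNA molecule) per ewe. Of 38464 barcodes that passed the filters of the study, 2007 were removed as likely doublets and 36457 cells were retained, with a median of 5187 to 9897 UMI per cell. Pairs of libraries shared 13 to 28 barcode sequences, and every cell was kept with its own library. The cells formed 39 clusters without use of the 6 receptors, and clusters were called X-like from marker genes. No name was given to 7 clusters with 492 cells, and 75 cells that clustered with granulosa-like cells but were led by endothelial genes were set aside. There were 15075 endothelial-like, 3806 stromal-like, 2863 granulosa-like, 2714 perivascular-like, 2620 immune-like, 1888 theca-like, 342 B cell-like, 348 epithelial-like and 131 Schwann-like cells. Another 1622 cells formed a cycling-like class of several tissues. A further cluster of 4363 cells, led by DCN and PTN with the contractile genes ACTA2 and TAGLN, is called stromal mixed because more of its leading genes were perivascular than stromal markers. The epithelial-like cells were led by OVGP1, KRT8 and KRT19 or by the cilium genes CCDC39 and DNAH5, and 232 of the 348 came from LLS ewe 2. Whether these cells lay on the ovary or in adjoining tissue was not tested. Libraries stood apart in the endothelium, where clusters led by COL15A1 and ESM1 held 59.9% of the endothelial-like cells of HLS ewe 2 and 71.0% of those of LLS ewe 1, but 2.93% to 5.28% in the other 4 ewes.

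Levels are given as UMI of a receptor per 10000 UMI of all genes, summed over the cells of a type in an ewe with at least 10 such cells, as mean ± SD over ewes. Because a 3′ library reads each gene from its end, levels are compared between cells and never between genes. Differences between types are log2 values ± SE from edgeR quasi-likelihood fits on these sums with the ewe as a block, scaled with TMM factors, and a difference was called when its p, adjusted over all genes tested, was below 0.05. The TMM factors shifted the median difference of all genes by up to 0.74 on the log2 scale and by over 0.1 in 35 of 45 pairs of types, so each difference is relative to that shift. In the retained cells there were 4716 UMI of ESR1, 1213 of ESR2, 4833 of PGR, 29707 of NR3C1, 590 of NR5A1 and 10645 of NR5A2.

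**Figure D1:**
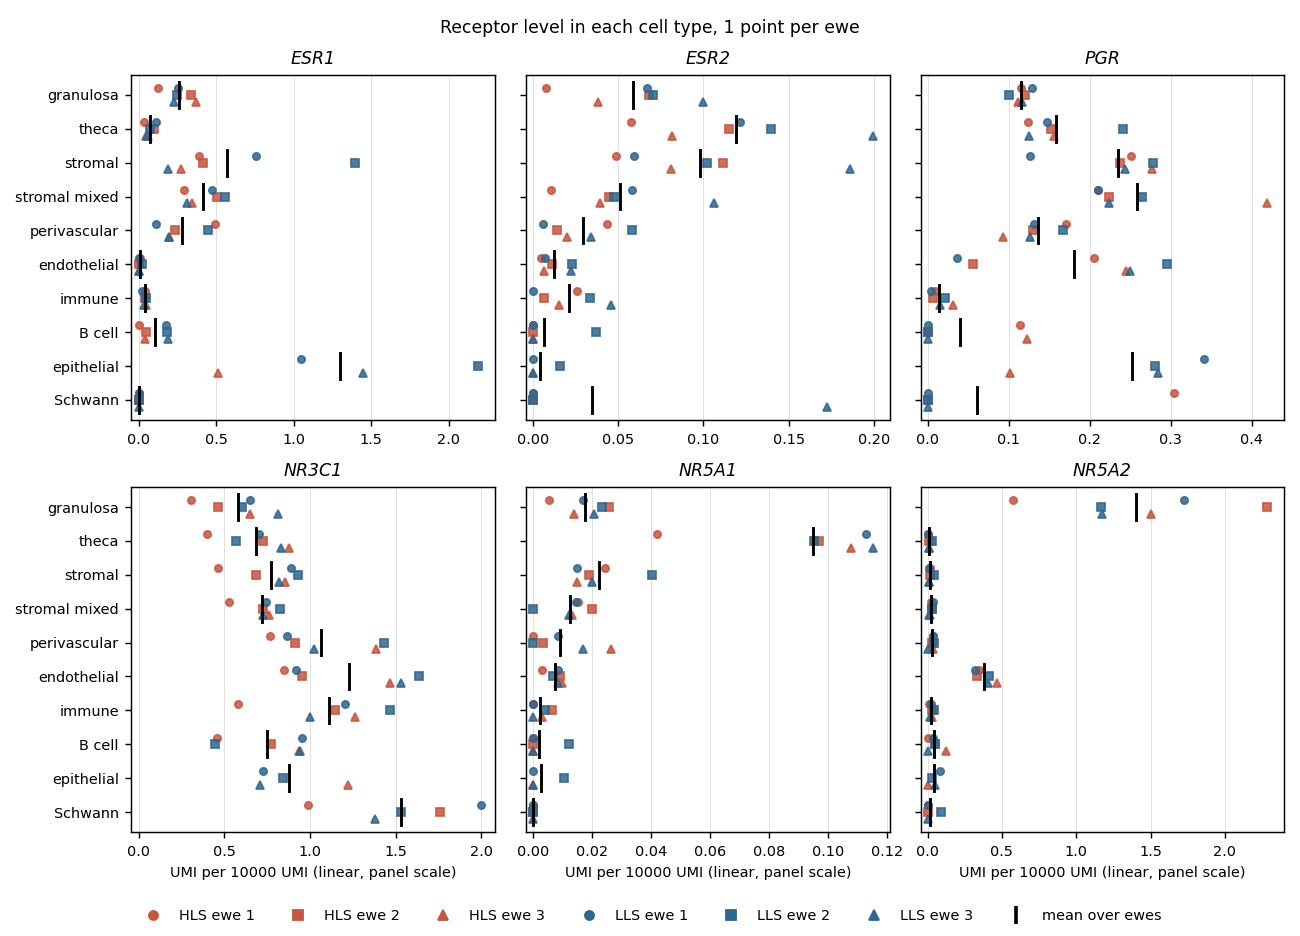
Level of each receptor in 10 cell types, in UMI per 10000 UMI on a linear axis that differs between panels, with 1 point per ewe (red HLS, blue LLS, symbol by ewe number) and a bar at the mean over ewes. Among these 10 types, NR5A2 was highest in granulosa-like cells (mean 1.4), NR5A1 in theca-like cells (0.0951) and ESR1 in epithelial-like cells (1.30). NR3C1 was spread over all types.

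ESR1 was most abundant in the epithelial-like cells, whose place in the ovary was not tested, and in stromal-like cells, and was nearly missing from the endothelium. Its level was 1.30 ± 0.708 in epithelial-like cells (n = 4 ewes), 0.569 ± 0.448 in stromal-like cells, 0.415 ± 0.111 in the stromal mixed cluster, 0.281 ± 0.153 in perivascular-like cells and 0.261 ± 0.0872 in granulosa-like cells (n = 6 each). It then fell to 0.0711 ± 0.0309 in theca-like, 0.0396 ± 0.010 in immune-like and 0.00720 ± 0.00597 in endothelial-like cells. No ESR1 UMI was found in 122 Schwann-like cells of 5 ewes, which allows a level of up to 0.0667 by counting error alone.

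By ewe, the ESR1 level in stromal-like cells was 0.390, 0.413 and 0.271 in HLS ewes 1 to 3 and 0.755, 1.4 and 0.190 in LLS ewes 1 to 3. LLS ewes 1 and 2 lay above all HLS ewes and LLS ewe 3 lay below them, so the groups overlapped. In granulosa-like cells the values were 0.123, 0.339 and 0.370 in HLS and 0.257, 0.250 and 0.229 in LLS ewes, with the LLS ewes inside the HLS range.

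Epithelial-like exceeded stromal-like cells by 1.19 ± 0.34 (log2; edgeR, adjusted p = 0.00378), and the difference had the same sign in 4 of 4 ewes. Of the 14920 genes tested between types, 39% were called in this pair. Without LLS ewe 3 the value was 0.83 with an adjusted p of 0.109 by edgeR, and the call was lost. Stromal-like exceeded granulosa-like cells by 0.96 ± 0.29 (edgeR, adjusted p = 0.00575; 43.7% of genes called), although in 4 of 6 ewes only, and this call was lost without LLS ewe 2 (0.59, edgeR adjusted p = 0.127). Granulosa-like exceeded theca-like cells by 1.76 ± 0.33 (edgeR, adjusted p = 1.7e-05, 6 of 6 ewes, 42% of genes called). Immune-like exceeded endothelial-like cells by 2.79 ± 0.53 (edgeR, adjusted p = 1.1e-05, 6 of 6 ewes, 58.1% of genes called). This last difference rests on 48 ESR1 UMI in immune-like and 86 in endothelial-like cells. Whether levels this low stand above background was not tested.

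Between neighbours in the order of ESR1 levels, only the steps from epithelial-like to stromal-like and from immune-like to endothelial-like cells were called, 2 of 9 in all. Over the 9 steps of all 6 receptors, 8.4% to 66.1% of all genes were called. Stromal-like and stromal mixed cells, where 8.4% of genes were called, differed by 0.26 ± 0.28 (edgeR, adjusted p = 0.677), and perivascular-like and granulosa-like cells by -0.04 ± 0.30 (edgeR, adjusted p = 0.935). A UMI of ESR1 was found in 51.9% of epithelial-like, 24.0% of stromal-like and 18.5% of granulosa-like cells, against 1.65% of immune-like and 0.626% of endothelial-like cells. Median depths over ewes were 5044 to 13134 UMI in granulosa-like and 2177 to 4098 UMI in immune-like cells. After every cell was thinned to 3000 UMI, which left 29039 cells and dropped 7418, the shares in these types were 29.8%, 14.9%, 8.91%, 1.35% and 0.164%.

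ESR2 followed another order and was highest in theca-like and stromal-like cells. Its level was 0.119 ± 0.0492 in theca-like, 0.0980 ± 0.0493 in stromal-like, 0.0586 ± 0.0316 in granulosa-like, 0.0511 ± 0.0312 in stromal mixed, 0.0292 ± 0.0196 in perivascular-like, 0.0212 ± 0.0172 in immune-like and 0.0124 ± 0.00818 in endothelial-like cells (n = 6 each). Epithelial-like cells, the type with most ESR1, gave 3 UMI of ESR2 in 4 ewes. Theca-like cells held 26.4% of all ESR2 UMI and stromal-like cells 24.6%, compared with 11.8% in granulosa-like cells.

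The theca-like level was 0.0575, 0.115 and 0.0817 in HLS ewes 1 to 3 and 0.122, 0.140 and 0.199 in LLS ewes 1 to 3. In granulosa-like cells it was 0.00786, 0.0682 and 0.0383 in HLS and 0.0671, 0.0701 and 0.0998 in LLS ewes. HLS ewe 1 was the lowest of the 6 ewes in both types.

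Theca-like exceeded granulosa-like cells by 1.31 ± 0.30 (log2; edgeR, adjusted p = 0.00034) in 6 of 6 ewes, and stromal-like exceeded granulosa-like cells by 0.91 ± 0.30 (edgeR, adjusted p = 0.0118) in 5 of 6 ewes, the only 1 of 9 steps in the order that was called. Theca-like and stromal-like cells did not pass the test against each other (0.41 ± 0.29, edgeR adjusted p = 0.282), although theca-like cells were higher in 6 of 6 ewes, and 37.1% of genes were called between these types. At a clustering resolution of 1.6, which left 845 granulosa-like cells, the theca-like excess over granulosa-like cells was 0.48 with an edgeR adjusted p of 0.23, and the stromal-like difference turned to -0.19. The stromal-like call was also lost without LLS ewe 3 (0.87, edgeR adjusted p = 0.0547). A UMI of ESR2 was found in 12.6% of theca-like, 6.36% of stromal-like and 4.27% of granulosa-like cells, against 0.919% of immune-like cells. Theca-like cells were also the deepest, with a median of 10612 to 16457.5 UMI, and after thinning the shares were 3.22%, 3.03%, 1.76% and 0.711%.

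PGR was found in stroma, epithelium, vessel and follicle. Its level was 0.259 ± 0.0812 in the stromal mixed cluster, 0.252 ± 0.104 in epithelial-like cells (n = 4), 0.235 ± 0.0563 in stromal-like, 0.181 ± 0.109 in endothelial-like, 0.158 ± 0.0433 in theca-like, 0.136 ± 0.0287 in perivascular-like and 0.115 ± 0.00944 in granulosa-like cells. Immune-like cells had the lowest level, 0.0144 ± 0.0101. Because the endothelium was the largest type, it held 44.6% of all PGR UMI.

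No step between neighbours in the order of PGR levels was called, 0 of 9. Stromal-like exceeded granulosa-like cells by 1.13 ± 0.29 (log2; edgeR, adjusted p = 0.00106, 5 of 6 ewes), and granulosa-like exceeded immune-like cells by 2.55 ± 0.47 (edgeR, adjusted p = 6.0e-06, 6 of 6 ewes, 61.8% of genes called). Stromal-like and endothelial-like cells did not pass (0.49 ± 0.26, edgeR adjusted p = 0.107; 57.2% of genes called), nor did stromal mixed and epithelial-like cells (0.10 ± 0.40, edgeR adjusted p = 0.896; 36.8% of genes called). A UMI of PGR was found in 17.9% of theca-like, 15.3% of stromal-like, 13.4% of endothelial-like and 9.21% of granulosa-like cells, against 0.658% of immune-like cells. After thinning these shares were 5.19%, 6.73%, 4.90%, 3.33% and 0.404%, so that the excess of theca-like over stromal-like cells was seen only at full depth.

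The granulosa-like level of PGR was 0.115, 0.120 and 0.111 in HLS and 0.129, 0.10 and 0.116 in LLS ewes, with the groups overlapping. In endothelial-like cells it was 0.205, 0.0560 and 0.244 in HLS and 0.0366, 0.296 and 0.250 in LLS ewes. HLS ewe 2 and LLS ewe 1, whose endothelium was mostly of the clusters led by COL15A1 and ESM1, were the 2 low ewes, and without them the mean was 0.249.

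NR3C1 was detected in every type, and its lowest mean among the 10 types compared was in granulosa-like cells. The level was 1.53 ± 0.383 in Schwann-like cells (n = 5), 1.23 ± 0.356 in endothelial-like, 1.11 ± 0.302 in immune-like, 1.07 ± 0.279 in perivascular-like, 0.876 ± 0.240 in epithelial-like (n = 4), 0.773 ± 0.175 in stromal-like, 0.684 ± 0.176 in theca-like and 0.580 ± 0.174 in granulosa-like cells. Endothelial-like cells held 57.2% of its UMI.

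In endothelial-like cells the NR3C1 level was 0.849, 0.953 and 1.47 in HLS and 0.919, 1.64 and 1.53 in LLS ewes. In granulosa-like cells it was 0.306, 0.463 and 0.649 in HLS and 0.649, 0.603 and 0.811 in LLS ewes. The groups overlapped in both types, and HLS ewe 1 was the lowest in both.

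Endothelial-like exceeded granulosa-like cells by 1.21 ± 0.12 (log2; edgeR, adjusted p = 1.2e-12, 6 of 6 ewes), in a pair where 60.7% of genes were called. Theca-like exceeded granulosa-like cells by 0.51 ± 0.12 (edgeR, adjusted p = 0.000651, 5 of 6 ewes), a call that was lost when the sums were scaled by total UMI without TMM factors (0.27, edgeR adjusted p = 0.126). Of the 9 steps, 3 were called, those from immune-like to perivascular-like (59.8% of genes called), from perivascular-like to epithelial-like (39%) and from theca-like to granulosa-like cells. The step from immune-like to perivascular-like cells was 0.36 ± 0.12 (edgeR, adjusted p = 0.00991), although in 3 of 6 ewes only. The median difference of all genes in that pair was -0.39 without TMM factors and -0.092 with them. This step is thus relative to a shift of similar size. Schwann-like and endothelial-like cells did not differ beyond their spread (-0.24 ± 0.18, edgeR adjusted p = 0.389; 28.1% of genes called), and the sign was opposite to that of the mean levels. A UMI was found in 56.6% of endothelial-like, 48.1% of theca-like, 35.3% of granulosa-like and 34.2% of immune-like cells. After thinning the shares were 29.0%, 18.1%, 17.6% and 27.9%, which changed the place of immune-like cells in the order. No type that lacks NR3C1 was at hand to set its background.

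The orphan receptors divided the follicle, with NR5A1 in theca-like and NR5A2 in granulosa-like cells. NR5A1 had few UMI. Its level was 0.0951 ± 0.0272 in theca-like, 0.0222 ± 0.00961 in stromal-like and 0.0177 ± 0.00747 in granulosa-like cells, and at most 0.0125 in the other types compared. By ewe the theca-like level was 0.0421, 0.0969 and 0.108 in HLS and 0.113, 0.0954 and 0.115 in LLS ewes, resting on 13 to 74 UMI per ewe, and the granulosa-like level was 0.00524, 0.0259 and 0.0139 in HLS and 0.0168, 0.0234 and 0.0208 in LLS ewes, resting on 2 to 14 UMI. Every ewe had more NR5A1 in theca-like than in granulosa-like cells.

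Theca-like exceeded stromal-like cells by 2.12 ± 0.32 (log2; edgeR, adjusted p = 4.1e-07) and granulosa-like cells by 2.63 ± 0.33 (edgeR, adjusted p = 5.5e-09), each in 6 of 6 ewes. Stromal-like and granulosa-like cells did not differ beyond their spread (0.51 ± 0.36, edgeR adjusted p = 0.265), and the theca-like step was the only 1 of 9 called. A UMI of NR5A1 was found in 11.6% of theca-like, 1.72% of stromal-like and 1.55% of granulosa-like cells, against 0.104% of immune-like cells. Thinned, the shares were 3.59%, 0.371%, 0.465% and 0.223%. At this depth the granulosa-like and immune-like shares lay close to each other.

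Among the 10 types compared, NR5A2 was high in granulosa-like cells, present in endothelial-like cells and close to 0 in the others. Its level was 1.4 ± 0.581 in granulosa-like and 0.381 ± 0.0576 in endothelial-like cells, at most 0.0425 in the other types compared, and 0.0114 ± 0.0110 in theca-like cells, where all 6 ewes together gave 28 UMI. Endothelial-like cells held 51.9% of its UMI and granulosa-like cells 35.5%. Outside the types compared, NR5A2 was 0.122 ± 0.0955 in the cycling-like class. In a cluster led by OXT, left out of the comparisons and described below, it was 5.67 in LLS ewe 3.

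The granulosa-like level was 0.574, 2.29 and 1.5 in HLS and 1.72, 1.17 and 1.17 in LLS ewes. HLS ewes 1 and 2 were the lowest and the highest of the 6, and the LLS ewes lay between them. The endothelial-like level was 0.348, 0.334 and 0.466 in HLS and 0.316, 0.412 and 0.409 in LLS ewes, with the groups overlapping.

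Granulosa-like exceeded endothelial-like cells by 1.71 ± 0.21 (log2; edgeR, adjusted p = 3.9e-10) and theca-like cells by 6.74 ± 0.32 (edgeR, adjusted p = 6.0e-24), each in 6 of 6 ewes. The theca-like value rests on UMI at background level, so only the direction of that difference is read and not its size. Endothelial-like exceeded B cell-like cells, the next in the order, by 2.73 ± 0.49 (edgeR, adjusted p = 7.5e-06; 39.2% of genes called), and the other 7 steps were not called. A UMI of NR5A2 was found in 40.5% of granulosa-like and 24.6% of endothelial-like cells, against 1.31% of theca-like and 1.10% of immune-like cells. The thinned shares were 24.9%, 9.93%, 0.233% and 0.940%. The theca-like share was below the immune-like share after thinning and was not read as expression.

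Within granulosa-like cells, 5 states were named from a second clustering, again without the receptors. A sub-cluster of 233 cells with a median of 2507 UMI got no state name. Its cells count in the granulosa-like levels but in no state. The mural state (1147 cells) had HTRA3, JPH1 and RUNX2 among its markers, the early state (898 cells) WT1 and WNT6, the AMH-type state (242 cells) AMH, INHA and FST, the cycling state (206 cells) cell cycle genes in cells of AMH type, and the estrogenic state (137 cells) CYP19, the listed symbol of aromatase, with LHCGR. These names come from marker lists. The largest early sub-cluster (401 cells) had IGFBP2 but neither WT1 nor WNT6 among its top 10 genes, and the paper used IGFBP2 as a cumulus marker. A sub-cluster of 333 cells was named mural although its early score was higher, as given below. The estrogenic state had at least 10 cells in HLS ewe 2 (26 cells) and LLS ewe 1 (104 cells) only. HLS ewe 1 had fewer than 10 cells of the AMH-type and cycling states.

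**Figure D2:**
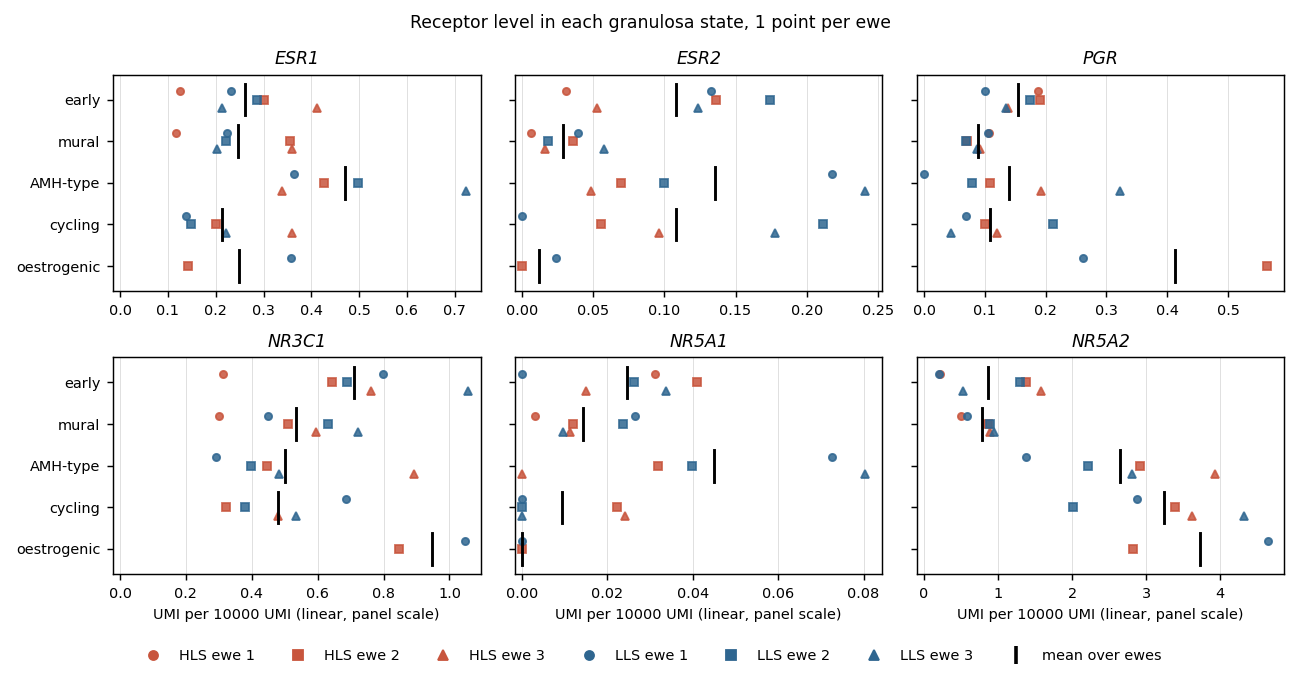
Level of each receptor in 5 granulosa states, in UMI per 10000 UMI on a linear axis that differs between panels, with 1 point per ewe that had at least 10 cells of the state and a bar at the mean. NR5A2 was at least 1.38 in every ewe of the AMH-type, cycling and estrogenic states and at most 0.945 in every ewe of the mural state.

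NR5A2 was higher in the AMH-type than in the early state and in the cycling than in the mural state. Its level was 3.73 ± 1.29 in the estrogenic state (n = 2), 3.24 ± 0.861 in the cycling and 2.65 ± 0.941 in the AMH-type state (n = 5 each), against 0.866 ± 0.621 in the early and 0.779 ± 0.187 in the mural state (n = 6 each). The mural level was 0.502, 0.867 and 0.889 in HLS and 0.581, 0.891 and 0.945 in LLS ewes. A mural sub-cluster of 200 cells, led by MX1 and TIMP1, drew a share of 0.98 of its cells from LLS ewe 2. Its NR5A2 level pooled over ewes was 0.826. The AMH-type level was 2.92 and 3.93 in HLS ewes 2 and 3 and 1.38, 2.21 and 2.81 in LLS ewes, above the mural level of the same ewe in each case.

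AMH-type exceeded early cells by 1.45 ± 0.26 (log2; edgeR, adjusted p = 6.8e-05, 5 of 5 ewes), in a pair where 25.5% of 10425 genes were called. Cycling exceeded mural cells by 1.83 ± 0.25 (edgeR, adjusted p = 3.6e-07, 5 of 5 ewes, 42.9% of genes called). The early and mural states did not differ beyond their spread (0.17 ± 0.24, edgeR adjusted p = 0.615), nor did the estrogenic and cycling states (0.47 ± 0.38, edgeR adjusted p = 0.452; 16.4% of genes called). The share of cells with a UMI of NR5A2 after thinning was 59.6% in the estrogenic state, from 47 cells of LLS ewe 1 alone. As a mean over 5 or 6 ewes it was 52.1% in the cycling and 53.4% in the AMH-type state, and 15.4% and 18.0% in the early and mural states.

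ESR2 was lower in mural cells than in the other well-filled states. Its level was 0.135 ± 0.0883 in the AMH-type, 0.108 ± 0.0548 in the early, 0.108 ± 0.0868 in the cycling and 0.0289 ± 0.0189 in the mural state. By ewe, the early level was 0.0311, 0.137 and 0.0525 in HLS and 0.133, 0.174 and 0.124 in LLS ewes, and the mural level was 0.00628, 0.0356 and 0.0158 in HLS and 0.0396, 0.0184 and 0.0579 in LLS ewes. The early level was above the mural level in 6 of 6 ewes, with a difference of 2.04 ± 0.40 (log2; edgeR, adjusted p = 0.000118; 38.3% of genes called), and cycling exceeded mural cells by 2.05 ± 0.47 (edgeR, adjusted p = 0.000652, 4 of 5 ewes). AMH-type and early cells did not differ beyond their spread (-0.15 ± 0.44, edgeR adjusted p = 0.848). The counts were small, with 60 UMI in the early and 28 in the mural state. The early excess of ESR2 was tested over all early sub-clusters together, and their ESR2 levels differed, as given below. Pooled over ewes, ESR2 was 0.0540 in the largest early sub-cluster (401 cells) and 0.241 in that led by TIMP2 (182 cells).

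For ESR1, PGR and NR3C1, 0 of the 4 steps between neighbouring states in the order of levels were called. Over all 20 steps tested between states, 4.87% to 42.9% of all genes were called. PGR was higher in the early (0.154 ± 0.0358) than in the mural state (0.0886 ± 0.0164) by 0.82 ± 0.28 (log2; edgeR, adjusted p = 0.0215, 5 of 6 ewes), a call that was lost without HLS ewe 2 (0.70, edgeR adjusted p = 0.0985), without LLS ewe 2 (0.69, edgeR adjusted p = 0.0994) and at a resolution of 0.4 (0.71, edgeR adjusted p = 0.0566). This early excess was tested over all early sub-clusters together, and their PGR levels differed, as given below. The estrogenic level of PGR, 0.413 ± 0.214 (n = 2), rested on 15 UMI. It did not pass against the early state (1.17 ± 0.59, edgeR adjusted p = 0.229, 11.1% of genes called). ESR1 was 0.470 ± 0.155 in the AMH-type and 0.214 to 0.262 in the other states, and AMH-type against early cells missed the threshold (0.60 ± 0.24, edgeR adjusted p = 0.058, 4 of 5 ewes). Mural cells were mixed for ESR1, with 0.438 pooled over ewes in a sub-cluster led by PTX3 (333 cells) and 0.166 to 0.228 in the other mural sub-clusters. The sub-cluster led by PTX3 had a higher score for early (0.543) than for mural markers (0.355). NR3C1 was 0.709 ± 0.243 in the early and 0.535 ± 0.149 in the mural state, higher in 6 of 6 ewes but short of the threshold (0.35 ± 0.15, edgeR adjusted p = 0.0734). NR5A1 had at most 19 UMI in any state and was below the filter on low counts, so it was not tested between states.

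The early state was itself mixed for the receptors. Sub-clusters led by TIMP2 and CCL25 (182 cells) and by FATE1 and CYTL1 (135 cells) together gave 4 UMI of NR5A2 in ewes with at least 10 of their cells, with mean levels of 0.0486 (n = 6) and 0 (n = 3). The sub-cluster led by ANGPT2 and NMB (401 cells) had 1.68 ± 0.708 (n = 4), and that led by PTPRD and COCH (180 cells) lay between at 0.793 ± 0.982 (n = 4). ESR2 was 0.217 ± 0.158 and 0.251 ± 0.0345 in the first pair, 0.0678 ± 0.0389 in the sub-cluster led by ANGPT2 and 0.0951 ± 0.135 in that led by PTPRD, on 10 to 20 UMI each. PGR was 0.444 ± 0.243 in the sub-cluster led by TIMP2, on 31 UMI. It was 0.0911 ± 0.0790 in that led by FATE1, 0.112 ± 0.0362 in that led by ANGPT2 and 0.0610 ± 0.0737 in that led by PTPRD. The sub-clusters led by TIMP2 and FATE1 were also shallower, with a median of 3630 and 3751 UMI against 8833 in that led by ANGPT2, and their granulosa marker score (the mean over markers of the level relative to the highest cluster) was 0.227 and 0.150 against 0.435. The part of depth and of cells of another type in this contrast was not tested. The sub-clusters with little NR5A2 made up 70.2%, 38.3% and 5.16% of early cells in HLS ewes 1 to 3 and 72.1%, 57.1% and 40.0% in LLS ewes 1 to 3. The ewes with the largest such shares, HLS ewe 1 and LLS ewe 1, had the lowest early levels of NR5A2, 0.218 and 0.200, against 0.528 to 1.58 in the other 4. These sub-clusters were compared after their values had been seen, and no test was run on them.

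The same held for clusters inside the larger types, which are described without a test. Stromal-like cells consisted of a cluster led by DPT, SERPINF1 and IGF1 (1507 cells) and a cluster led by collagen genes with COL11A1 and PTCH1 among its top 10 genes (2299 cells). PTCH1 encodes the receptor of hedgehog ligands. ESR1 in the DPT cluster was 1.48, 1.41 and 0.967 in HLS and 1.32, 2.66 and 0.992 in LLS ewes, a mean of 1.47 ± 0.621. In the PTCH1 cluster the ESR1 level was 0.0468 to 0.105, and the ratio of the clusters was 9.18 to 31.7 with a median of 18.5. ESR1 was higher in the DPT cluster in 6 of 6 ewes, with no overlap between the clusters.

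ESR2 was arranged the opposite way in the same cells. It was 0.0567, 0.137 and 0.0936 in HLS and 0.0984, 0.176 and 0.207 in LLS ewes in the PTCH1 cluster, and 0.0236 to 0.0496 in the DPT cluster, higher in the PTCH1 cluster in 6 of 6 ewes by a ratio of 2.41 to 5.95. Among 3449 stromal-like cells thinned to 3000 UMI, 547 had a UMI of ESR1, 102 had a UMI of ESR2 and 6 had both, where 14 would be expected if the genes were detected independently within each ewe. Without LLS ewe 2 the counts were 5 and 7.11. The DPT cluster made up 38.3%, 32.7% and 30.8% of stromal-like cells in HLS and 56.0%, 61.4% and 20.4% in LLS ewes. The ewes with the highest and the lowest shares, LLS ewes 2 and 3, were also those with the highest and the lowest ESR1 level over all stromal-like cells. Perivascular-like cells were mixed for ESR1 as well. It was 0.609 ± 0.199 in a cluster led by RGS5 and SEMA5A (856 cells) and 0.0530 ± 0.0166 in a cluster led by POSTN and RGS5 (721 cells). The first was higher in 6 of 6 ewes, by a ratio of 6.29 to 31.8.

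**Figure D3:**
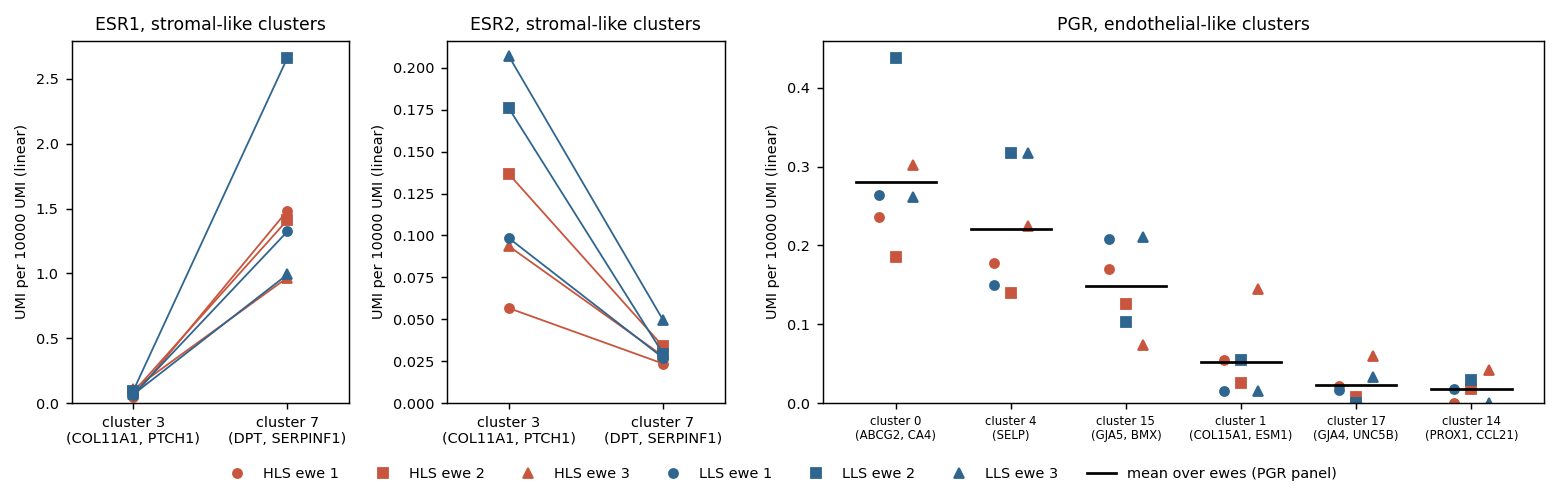
Levels in UMI per 10000 UMI (linear axes) by cluster, with 1 symbol per ewe. Left and middle, ESR1 and ESR2 in both stromal-like clusters with lines joining the same ewe, which rise toward the DPT cluster for ESR1 and fall for ESR2 in all 6 ewes; right, PGR in the 6 endothelial-like clusters with at least 10 cells in all 6 ewes, with bars at the mean, from 0.281 in the cluster led by ABCG2 and CA4 to 0.0179 in the cluster led by PROX1 and CCL21.

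PGR differed widely between the 6 endothelial-like clusters that had at least 10 cells in all 6 ewes. It was 0.236, 0.185 and 0.302 in HLS and 0.264, 0.438 and 0.261 in LLS ewes in the cluster led by ABCG2 and CA4 (5532 cells, mean 0.281 ± 0.0860), and 0.221 ± 0.0803 in the cluster led by SELP, a leukocyte adhesion gene of venules. The cluster with GJA5 and BMX had 0.149 ± 0.0565. GJA5 was also among the top 10 genes of the cluster with GJA4 and UNC5B, which is given next. The cluster led by COL15A1 and ESM1 (4369 cells) had 0.0518 ± 0.0490, that with GJA4 and UNC5B 0.0231 ± 0.0212, and that with PROX1 and CCL21, genes of lymphatic endothelium, 0.0179 ± 0.0165. Of the clusters with enough cells in 3 ewes only, that with NDRG1 and CDH13 had 0.291 ± 0.206 and a second one led by ESM1 and COL15A1 had 0.00489 ± 0.00846.

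The ABCG2 cluster exceeded the COL15A1 cluster in 6 of 6 ewes, by a ratio of 2.09 to 17.1. HLS ewe 2 and LLS ewe 1, low for PGR over all endothelial-like cells, had 0.185 and 0.264 in the ABCG2 cluster, the first the lowest of the 6 ewes and the second inside the range of the others. NR5A2 was also higher in the ABCG2 cluster (0.525 ± 0.0725) than in the COL15A1 cluster (0.258 ± 0.116) in 6 of 6 ewes, and the median depth was 6220 and 11260 UMI.

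The comparison of HLS and LLS asked whether receptor levels differ with litter size. Of 37 tests of a receptor in a type and 15 in a granulosa state, 0 were called by edgeR, with smallest adjusted p of 0.752 and 0.724. Of all genes tested, 0.00817% were called in the stromal mixed cluster, 0.0842% in the AMH-type state and 0% in the other types and states by edgeR. DESeq2 called 0 to 34 genes per type, 3 in granulosa-like and 0 in theca-like cells, with no receptor among them. Log2 fold changes of the receptors ran from -1.17 to 0.96 over the types with a median of -0.12. Before adjustment, 2 of the 37 and 1 of the 15 had a p under 0.05 by edgeR. Of all genes, 708 of 12239 in the stromal mixed cluster and 445 of 12158 in theca-like cells reached it by edgeR. The counts were 582 of 11936 in granulosa-like cells and 324 of 5937 in the AMH-type state.

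**Figure D4:**
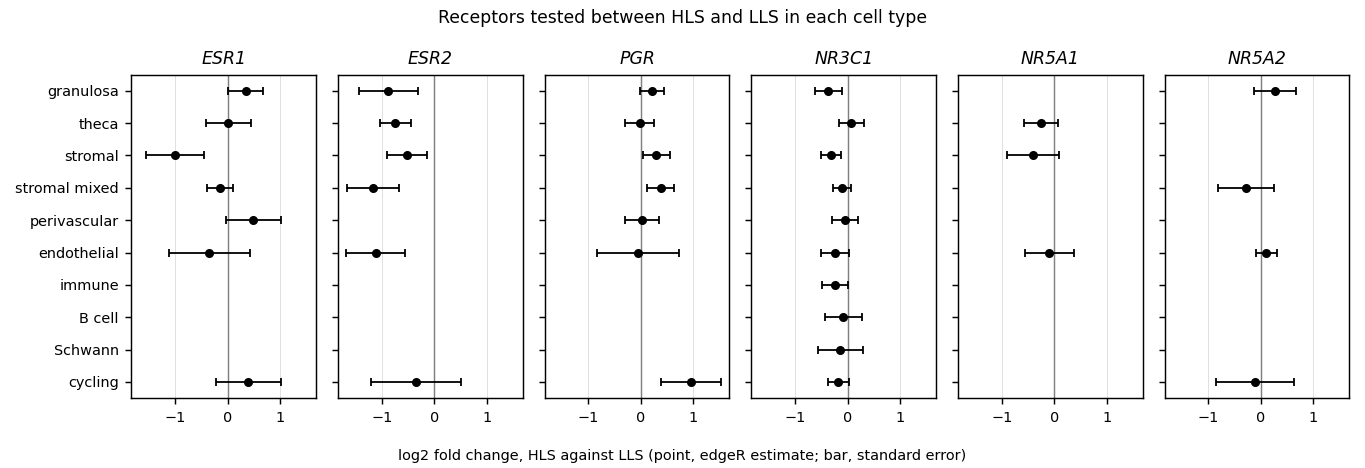
Log2 fold change of HLS against LLS for each receptor in each cell type where it passed the filter on low counts, as the edgeR estimate (point) and its standard error (bar), with a line at 0. The 6 points of ESR2 lie below 0, between -1.17 and -0.35, and none of the 37 differences was called.

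ESR2 had a log2 fold change below 0 in 6 of the 6 types tested, with a median of -0.81. The types share the same 6 ewes and are not independent of each other. The 2 with the smallest unadjusted p were -1.17 ± 0.49 in the stromal mixed cluster (edgeR, adjusted p = 0.824) and -0.74 ± 0.30 in theca-like cells (edgeR, adjusted p = 0.95). In granulosa-like cells the difference was -0.88 ± 0.56 (edgeR, adjusted p = 0.936) and in endothelial-like cells -1.12 ± 0.56 (edgeR, adjusted p = 1). In the stromal mixed cluster the ESR2 level was 0.0108, 0.0447 and 0.0395 in HLS and 0.0580, 0.0475 and 0.106 in LLS ewes.

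The groups did not overlap for ESR2 in theca-like cells and in the stromal mixed cluster, and 8.96% and 6.77% of all genes tested there were as cleanly lower in HLS. After TMM scaling the theca-like groups overlapped. Without adjustment for the genes tested, the 95% interval of the theca-like difference was -1.33 to -0.15, and that of the granulosa-like difference -1.98 to 0.22. HLS ewe 1 had the lowest ESR2 level of the 6 ewes in theca-like, granulosa-like, stromal-like, stromal mixed and endothelial-like cells, and without it the differences were -0.64 in theca-like cells, -0.48 in granulosa-like cells and -0.78 in the stromal mixed cluster, none called.

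NR5A2 differed by 0.74 ± 0.27 in the AMH-type state (edgeR, adjusted p = 0.724), where 2 HLS and 3 LLS ewes had enough cells. In all granulosa-like cells it differed by 0.27 ± 0.40 (edgeR, adjusted p = 0.957), with a 95% interval of -0.51 to 1.05, and the sign turned to -0.20 without HLS ewe 2. In endothelial-like cells it differed by 0.10 ± 0.20 (edgeR, adjusted p = 1), the narrowest interval of the receptor, -0.28 to 0.49.

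ESR1 in stromal-like cells differed by -1.01 ± 0.55 (edgeR, adjusted p = 0.752), but by 0.13 within the PTCH1 cluster and -0.28 within the DPT cluster alone. PGR in endothelial-like cells differed by -0.06 ± 0.78 with an interval of -1.59 to 1.47, and by -0.30 within the ABCG2 cluster. NR3C1 had a log2 fold change below 0 in 9 of 10 types, the furthest from 0 being -0.36 ± 0.25 in granulosa-like cells (edgeR, adjusted p = 0.936). NR5A1 differed by -0.25 ± 0.32 in theca-like cells (edgeR, adjusted p = 0.954).

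The difference of the HLS effect between granulosa-like cells and 6 other types was tested 33 times over the receptors and called 0 times by edgeR. An unadjusted p under 0.05 was found once, for NR3C1 in granulosa-like against theca-like cells (-0.47 ± 0.21, edgeR adjusted p = 1), in a pair where 317 of 13086 genes had an unadjusted p under 0.05. Shares of cells with a UMI were compared in 126 exact permutation tests, two-sided, of 3 against 3 ewes at best, which cannot give a p below 0.1, and 0 passed. The examples that follow were picked at this smallest p, which means only that the groups did not overlap. ESR2 was found in 1.71% ± 1.30 of thinned theca-like cells in HLS and 4.73% ± 1.55 in LLS (exact permutation p = 0.1). PGR was found in 10.7% ± 2.67 and 7.70% ± 1.16 of granulosa-like cells before thinning (exact permutation p = 0.1). The PGR difference had the other sign after thinning, 2.96% in HLS and 3.70% in LLS.

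Genes around the receptors were taken as lists of other nuclear receptors, coregulators, membrane steroid receptors, ligand enzymes and textbook targets. Over all lists and types, 790 tests between HLS and LLS gave 0 calls by edgeR, 39 of them with an unadjusted p under 0.05. In granulosa-like cells AMH, a textbook target of NR5A1, had a mean level of 1.23 in HLS and 0.617 in LLS (log2 difference 1.16 ± 0.50, edgeR adjusted p = 0.936). Other named targets of NR5A1 and NR5A2 differed by -0.27 ± 0.50 (INHA), -0.77 ± 0.49 (CYP11A1) and 0.28 ± 0.20 (FSHR), with no call. AMH was also a marker of the AMH-type state, which held 7, 131 and 28 cells in HLS and 14, 45 and 17 in LLS ewes.

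Between granulosa-like and theca-like cells, where 42% of all genes were called and their median difference was -0.01, the lists differed. Of 14 textbook targets of NR5A1 and NR5A2 tested, 4 were higher in granulosa-like and 10 in theca-like cells, with a median of -2.20. FSHR, the receptor of follicle-stimulating hormone, was 1.04 ± 0.184 in granulosa-like and 0.00508 ± 0.00449 in theca-like cells, and INHA, the alpha subunit of inhibin, was 3.79 ± 2.26 and 0.749 ± 0.127. CYP11A1, the side-chain cleavage enzyme, ran the other way at 1.68 ± 0.847 and 6.06 ± 1.70. All targets on this list except SCARB1, NR0B1 and NR0B2 were also markers that named granulosa-like or theca-like cells. The split of the list was thus largely fixed by the names.

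Ligand enzymes were mostly on the theca side, with 1 of 10 higher in granulosa-like and 6 in theca-like cells and a median of -0.96. This list holds the theca markers STAR, CYP11A1, HSD3B1 and CYP17A1 and the granulosa markers CYP19 and HSD17B1. Its direction was therefore in part fixed by the names of the types. Membrane steroid receptors gave 0 higher and 2 lower of 4, among them PGRMC1, a membrane-associated progesterone-binding protein, at 0.453 ± 0.150 in granulosa-like and 0.821 ± 0.165 in theca-like cells. Of 19 coregulators and chaperones, 4 were higher and 8 lower in granulosa-like cells, with a median of -0.22. HSP90AB1, a chaperone of unliganded steroid receptors, was 39.6 ± 5.61 in granulosa-like and 57.9 ± 7.15 in theca-like cells.

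Among textbook targets of NR3C1, 6 of 10 were higher and 1 lower in granulosa-like than in theca-like cells, with a median of 0.85, while NR3C1 itself was lower in granulosa-like cells. FKBP5, a glucocorticoid-induced cochaperone, was 3.19 ± 0.503 in granulosa-like and 0.834 ± 0.285 in theca-like cells, and ERRFI1 was 3.82 ± 1.32 and 0.822 ± 0.164. DUSP1, the 1 lower target, was 2.34 ± 0.590 and 3.29 ± 0.633. Textbook targets of PGR in the preovulatory follicle gave 5 higher and 2 lower of 12, with a median of 0.62. The transcription factor RUNX2 was 3.49 ± 1.01 in granulosa-like and 0.142 ± 0.0604 in theca-like cells, and PPARG, itself a nuclear receptor, was 1.42 ± 0.281 and 0.0234 ± 0.0163. RUNX2 was also a marker of the mural state. ADAMTS1, 1 of the 2 lower targets, was 0.505 ± 0.0731 in granulosa-like and 0.670 ± 0.217 in theca-like cells.

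Of 9 textbook targets of the estrogen receptors, 3 were higher and 1 lower in granulosa-like cells, with a median of 0.01. GREB1, a cofactor induced by estrogen, was 1.34 ± 0.354 in granulosa-like, 0.393 ± 0.177 in theca-like and 0.0197 ± 0.0107 in endothelial-like cells. Of 33 other nuclear receptors, 10 were higher and 7 lower in granulosa-like cells with a median of 0.18, a share of calls close to that of all genes. NR4A1, an immediate early orphan receptor, was 3.05 ± 0.426 in granulosa-like and 1.88 ± 0.287 in theca-like cells.

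Between endothelial-like and granulosa-like cells, where 60.7% of all genes were called with a median of -0.04, targets of NR5A1 and NR5A2 were lower in endothelial-like cells in 11 of 14 and higher in 1, with a median of -2.32. INHA was 0.0171 ± 0.00640 and FSHR 0.00417 ± 0.00251 in endothelial-like cells, where NR5A2 was also found. INHA, FSHR, AMH and CYP19 on this list were markers that named granulosa-like cells. Their lower endothelial-like levels were therefore in part fixed by the names. Ligand enzymes, a list that also holds the granulosa markers CYP19 and HSD17B1, were lower in 8 of 10 and higher in 0. Coregulators and chaperones were higher in 9 of 19 and lower in 1, and targets of NR3C1 were higher in 4 of 10 and lower in 1. ADAMTS1, a protease known as a PGR target in the follicle, was 5.02 ± 1.09 in endothelial-like and 0.505 ± 0.0731 in granulosa-like cells.

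Genes with the pattern most like each receptor were sought by Pearson's r of log2 CPM over 57 sums of ewe and type, which share ewes and types and are not independent. The 3 nearest genes were BMPR1B (r = 0.83), CDO1 and SETBP1 for ESR1, CSRNP3 (0.83), COL4A4 and EPHB2 for ESR2, and BNC2 (0.86), TBC1D19 and BBS7 for PGR. For NR3C1 they were ST3GAL6 (0.81), IQGAP1 and LRRC8C, for NR5A1 C1H3orf80 (0.84), HDGF and SYT6, and for NR5A2 EGLN1 (0.83), IRX5 and CERT1.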

How the data were processed

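Single-cell RNA-seq libraries of 6 Hu sheep ovaries (3 HLS, 3 LLS) were analysed from the deposited matrices of UMI counts per gene and barcode, which the authors made with Cell Ranger 5.0.0 and its STAR aligner. The genome build is not given in the sources used here. They held 52290 barcodes, with 43329214 to 75549906 UMI per library.

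Barcodes were kept with at least 200 genes, at least 1000 UMI, a log10 gene to log10 UMI ratio of at least 0.7, at most 10% mitochondrial and at most 5% haemoglobin UMI. Doublets were scored per library against 2 simulated doublets per cell and removed at 0.8% per 1000 cells. Cells were clustered with Leiden (leidenalg 0.10.2) at resolution 0.8 on 2000 variable genes without the receptors, with 30 components and 20 neighbours (scikit-learn 1.9.0). A cluster was named from marker lists at a score of at least 0.35. The naming limits and the split of clusters into stromal mixed were set after the values were seen.

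UMI counts were summed per ewe and type with at least 10 cells and tested with edgeR 4.0.16 (filterByExpr, TMM, quasi-likelihood, Benjamini-Hochberg over all genes tested; R 4.3.3) or, as an alternative, DESeq2 1.42.0. HLS was compared with LLS per type, and types or states within ewes with the ewe as a block. The edgeR script was tested on simulated data. Each ewe gave 1 library, so p-values of HLS against LLS within a type or state measure the spread between ewes. Those of fits with the ewe as a block measure the spread left after differences between ewes are removed. Poisson and binomial intervals and limits at 0 cover counting error only. The 95% intervals of log2 differences use the edgeR SE with a normal quantile and are not adjusted for the genes tested. With few ewes such intervals are too narrow.

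The 6 receptors were named in every comparison. Of each gene list at most the 4 members of highest mean level in granulosa-like cells were eligible to be named, and for likeness the 3 genes of highest correlation with each receptor. The receptors and gene lists were chosen with earlier results of these data known. Alternatives covered the scaling, tool, low-count filter, replicate block, each ewe left out, doublet removal, a mitochondrial limit of 20%, resolutions of 0.4 and 1.6, receptors kept as variable genes and thinning. Values within single clusters and co-detection without each ewe were added after the data were seen.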

Additional observations from a re-analysis of the deposited data

How the results depend on the processing

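Over all results and alternatives, 780 values kept their direction and side of the threshold or stayed within the spread, 24 reversed, 30 moved, 10 became weaker and 4 stronger. No receptor was called between HLS and LLS under any alternative run. The cause of each change was not tested unless the setting itself gives it. Over all retained cells NR5A1 had 590 UMI and ESR2 1213, which limits the precision of both.

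Between types, ESR2 in theca-like over stromal-like cells became called at a mitochondrial limit of 20% (0.72) and at resolution 1.6 (0.67), and ESR2 in stromal-like over granulosa-like cells turned to -0.19 at resolution 1.6. PGR in stromal mixed over epithelial-like cells was -0.10 without TMM and -0.087 with DESeq2, and NR3C1 in Schwann-like over endothelial-like cells was 0.37 and 0.15. ESR2 in AMH-type over early cells was 0.17 without doublet removal, 0.34 at the 20% limit and 0.076 at resolution 0.4, where NR5A2 in early over mural cells was -0.23.

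With 1 ewe left out, ESR1 epithelial-like over stromal-like cells ranged from 0.83 to 1.4, ESR1 stromal-like over stromal mixed from -0.045 to 0.42, PGR stromal mixed over epithelial-like from -0.12 to 0.30, ESR1 AMH-type over early from 0.45 to 0.86 (called without HLS ewe 3), ESR2 AMH-type over early from -0.36 to 0.13, NR3C1 estrogenic over early from -0.0081 to 0.45, NR5A2 estrogenic over cycling from -0.68 to 1.08 and NR5A2 early over mural from -0.026 to 0.34. Between HLS and LLS, PGR in endothelial-like cells ranged from -0.56 to 0.38 and NR5A2 in granulosa-like cells from -0.20 to 0.62. The number of genes called ranged from 0 to 4 over types and from 0 to 5 over states.

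Within single clusters, ESR1 in the PTCH1-containing stromal cluster was 0.13, and NR5A2 was -0.044 in the endothelial cluster led by ABCG2 and -0.39 in that led by GJA5. Genes called over types numbered 1 and became 56 with DESeq2, 5 without TMM, 302 without the low-count filter and 0 at the 20% limit, without doublet removal and at resolution 1.6. Over states 5 became 2 at the 20% limit, 261 without the filter, 0 at resolution 0.4 and 2 at resolution 1.6.

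Thinning lowered the shares of cells with a UMI to 29.8% for ESR1 in epithelial-like, 3.22% for ESR2 and 3.59% for NR5A1 in theca-like, 6.73% for PGR in stromal-like, 4.90% for PGR and 29.0% for NR3C1 in endothelial-like and 24.9% for NR5A2 in granulosa-like cells. The NR3C1 endothelial-like share was 51.3% at the 20% limit. At resolution 1.6 the NR5A1 theca-like share was 14.7% and the NR5A2 granulosa-like level 2.51.

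Deviations of same-numbered ewes of HLS and LLS were correlated over types at -0.30 to 0.018 for number 1 and -0.35 to -0.026 for number 2. For number 3 the correlations were all positive, 0.041 to 0.40. Whether same-numbered ewes share more than a number was not tested. With the replicate block 2 genes were called over types and 7 over states, with 0 receptors, and PGR in endothelial-like cells was 0.065. No block could be fitted for the AMH-type and cycling states and Schwann-like cells, and some types or states could not be fitted under the 20% limit, resolutions 0.4 and 1.6, or without HLS ewe 2 or 3.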

Other observations

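A cluster of 118 cells, led by OXT, HSD3B1 and PKIB, genes of luteal cells, took 89.0% of its cells from LLS ewe 3 and was left out of the comparisons. Its marker score was highest for red blood cell genes, with luteal markers second, so its identity is uncertain. In the 105 cells of that ewe NR5A2 stood at 5.67 UMI per 10000 UMI (680 UMI, exact 95% Poisson interval 5.25 to 6.11, counting error only), and 66.7% of them had a UMI of NR5A2 (exact Clopper-Pearson interval 56.8% to 75.6%). The 10 cells of HLS ewe 1 gave 3 UMI of NR5A2. In LLS ewe 3 PGR stood at 0.258 (31 UMI), NR3C1 at 0.442 (53 UMI) and ESR1 at 0.050 (6 UMI), with 2 UMI each of ESR2 and NR5A1. With 1 ewe holding nearly all of these cells, no comparison between ewes or groups was made.

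In 2374 granulosa-like cells thinned to 3000 UMI, 218 had a UMI of ESR1 and 41 of ESR2, with 2 cells holding both, where independent detection within ewes would give 3.94. NR5A2 was found in 606 of these cells and together with ESR2 in 9, where independent detection would give 11.5. In stromal-like cells, 547 had ESR1, 243 had PGR and 36 both, against 37.8.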
